A study of Homo sapiens with 8 samples.

Results

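LIN28, IGF2BP and HMGA are 3 small families of proteins that are abundant in the embryo, mostly fall silent in adult tissues and return in many tumours. The genes described here are LIN28A, LIN28B, IGF2BP1, IGF2BP2, IGF2BP3, HMGA1 and HMGA2, taken by symbol: 7 of the 60668 genes in the count files, each with 1 row. They were measured by RNA-Seq in D283 MED, an established human medulloblastoma line, stably transduced with a lentivirus that carries a doxycycline (DOX)-inducible FLAG-OMOMYC transgene (D283-OMO cells, selected with hygromycin). OMOMYC is a dominant-negative form of MYC. The 4 libraries of the OMO group came from untreated D283-OMO cells and the 4 of the OMO+DOX group from D283-OMO cells given DOX for 72 h, so all 8 carry the transgene. No DOX-treated cells without the transgene were analysed here, and the effect of DOX itself cannot be told apart from that of OMOMYC.

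LIN28A and LIN28B are RNA-binding proteins with a cold shock domain and zinc knuckles. They bind the precursors of the let-7 microRNAs and block their maturation, and let-7 in turn represses LIN28, which makes the pair a classic double-negative switch of developmental timing. IGF2BP1, IGF2BP2 and IGF2BP3 bind target mRNAs, named after IGF2 mRNA, affecting their stability, transport and translation, and also act as readers of the m6A mark. HMGA1 and HMGA2 bind AT-rich DNA through AT-hooks and shape chromatin, and HMGA2 is among the best studied let-7 targets. MYC is known to activate LIN28B and HMGA1 in other cells, which is the reason for looking at the set where MYC is inhibited.

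The shared let-7 link can be read in the sequences. The mature let-7 microRNAs and miR-98 carry the same seed, bases 2 to 8, shown in capitals for 3 of the 9 mature forms compared (RefSeq, GRCh38.p14; 5′ to 3′):
hsa-let-7a-5p: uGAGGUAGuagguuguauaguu
hsa-let-7g-5p: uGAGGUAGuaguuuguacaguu
hsa-miR-98-5p: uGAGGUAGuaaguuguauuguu
LIN28 proteins are known to recognise a GGAG motif in the terminal loop of the precursors. Searched on the transcribed strand between the mature arms, GGAG was present in 8 of the 11 hairpins compared. The let-7g hairpin has it, in capitals here, whereas those of let-7a-3, let-7b and miR-98 do not (chr3:52268278-52268361, minus strand, GRCh38.p14).
let-7g hairpin: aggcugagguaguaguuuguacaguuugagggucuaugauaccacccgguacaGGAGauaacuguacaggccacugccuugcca

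The sequence complementary to the seed, CTACCTC, was looked for on the transcript strand of the 3′ UTR of the principal transcript of each gene in GENCODE 29, on GRCh38. All 7 genes held at least 1 match, against 8.6% of 18948 coding genes with a 3′ UTR. LIN28B, IGF2BP1 and HMGA2 held 4 matches each, a number reached by 0.06% of coding genes, and the other 4 genes held 1 each. These genes also have long 3′ UTRs, from 1347 bases in HMGA1 to 6206 bases in IGF2BP1, against a median of 876.5 bases over coding genes, and the shares given are not adjusted for length. The match extends to CTACCTCA, the 8-base form, at 3 sites of IGF2BP1, 2 of LIN28B and 1 each of LIN28A, IGF2BP2, IGF2BP3 and HMGA2, and at no site of HMGA1. The match closest to the stop codon is shown for each gene, with the complement of the seed and, where it is there, the following A in capitals. Each lies in an exon, within the 3′ UTR, and is written 5′ to 3′ on the gene's strand. A match is a description of the sequence and not a measured site.
LIN28A, chr1:26427349-26427376, plus strand: cacagcctattgaaCTACCTCAtttttg
LIN28B, chr6:105078813-105078840, plus strand: cccggttgcaaagtCTACCTCAtgcaag
IGF2BP1, chr17:49051062-49051089, plus strand: gtgtgcgaagtaaaCTACCTCAaggtat
IGF2BP2, chr3:185644214-185644241, minus strand: acacacagaagaagCTACCTCAggtgtt
IGF2BP3, chr7:23311789-23311816, minus strand: gcatttttactcaaCTACCTCAggtatt
HMGA1, chr6:34245830-34245857, plus strand: cctctgttcacaaaCTACCTCtggacag
HMGA2, chr12:65963299-65963326, plus strand: ccaacgttcgatttCTACCTCAgcagca

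MYC and OMOMYC recognise the E-box, for which CACGTG, its own reverse complement, is the canonical form. Promoter windows from 250 bases before to 50 bases after a start site were at hand for 4 of the 7 genes in the RefSeq set (GRCh38.p14), and 7.3% of its 35116 windows hold CACGTG. IGF2BP3 held the motif at 174 and 146 bases before its start site, and 0.66% of windows hold it at least 2 times. LIN28B held it 47 bases before its downstream start site and not in the window of its upstream one. Both windows of IGF2BP2 and both of HMGA1 lacked these letters. The stretches around the motifs, in capitals, are shown for both genes that held it. A link between the motif and the changes described below was not tested.
IGF2BP3, chr7:23470607-23470690, minus strand: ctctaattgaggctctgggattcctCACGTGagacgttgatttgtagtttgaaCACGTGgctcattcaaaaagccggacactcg
LIN28B, chr6:104957035-104957090, plus strand: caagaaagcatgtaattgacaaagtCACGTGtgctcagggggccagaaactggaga

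The libraries held between 38390696 and 54020506 expected counts each, and levels are given in CPM, counts relative to the TMM-scaled size of each library. CAD and NCL, a pyrimidine synthesis enzyme and a nucleolar protein used as known MYC targets, fell with DOX (log2FC of -0.48 and -0.44). Reads assigned to MYC rose (log2FC of 0.26), a count that may include reads of the MYC-derived transgene. The groups overlapped for MYC, with OMO replicate 3 at 1048.64 CPM and OMO+DOX replicate 2 at 1047.23 CPM. For MYC protein, which these counts do not measure, the study reports a strong decrease with DOX by immunoblot. Of 9 Group 3 and Group 4 medulloblastoma markers, 6 were tested and all 6 fell, as did 38.1% of all genes tested. EOMES, LMX1A and BARHL1 were below the filter. EOMES was higher with DOX, at 0.777 ± 0.223 against 0.264 ± 0.157 CPM (SD, n = 4). The summed level of the 9 went from between 2200 and 2408 CPM to between 705.4 and 724.2 CPM. OTX2, the most abundant, went from 1049 ± 17.4 to 510 ± 1.79 CPM (SD, n = 4). Of 7 neuronal and neural progenitor markers, 5 were tested: NES (log2FC of 1.91), MAP2 (2.91) and TUBB3 (0.73) rose and NEUROD1 (-2.22) and DCX (-1.96) fell, and the sum went from between 168.9 and 179 CPM to between 258.3 and 276.9 CPM. Of 5 fibroblast markers, PDGFRB rose (1.58) and COL1A1 did not pass the test, while COL3A1, DCN and LUM were below the filter, and the sum went from between 34.99 and 37.43 CPM to between 55.7 and 69.1 CPM. The 3 endothelial markers summed to between 2.59 and 3.67 CPM in all libraries, with VWF falling (-1.39), PECAM1 at no more than 2 counts and CDH5 at 0 counts in every untreated library and 61 to 106 counts in treated ones. The 5 glial markers summed to at most 4.84 CPM, with OLIG2 falling (-0.72) and MOG at 0 throughout, and the 4 immune markers to at most 0.665 CPM, with none tested. The part of these markers in the results below was not tested. OMO replicate 3 stood apart from the other untreated libraries, with a mean correlation of 0.993 with its group against 0.996 for each of the others. For the 6 genes tested, log2FC without it are given with each gene.

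The 7 genes did not change alike with DOX. Both HMGA genes and IGF2BP1 fell, IGF2BP2 rose slightly, IGF2BP3 and LIN28B did not pass the test, and LIN28A was hardly detected in either group. Of the 7 genes, 6 had more than 1 CPM in at least 4 libraries and entered edgeR's quasi-likelihood test, whose p-values were adjusted by Benjamini and Hochberg's method over the 15222 genes that passed this filter. At an adjusted p below 0.05, 3 genes were lower and 1 was higher with DOX. This has to be read against a wide response, since 38.1% of all genes tested were lower and 38.5% were higher by the same rule. The untreated and treated libraries did not overlap for 4 genes, nor for 71.7% of all genes tested. None of the 7 reached the thresholds for differential expression in the study's methods, an FDR below 0.001 with an absolute log2FC above 2. Of all genes tested, 7.12% reached them. The study's results section gives an FDR below 0.01 with the same log2FC limit, which none of the 6 genes tested reached either. The median log2FC of the 6 genes was -0.22, against 0.01 for all genes tested.

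**Figure D1:**
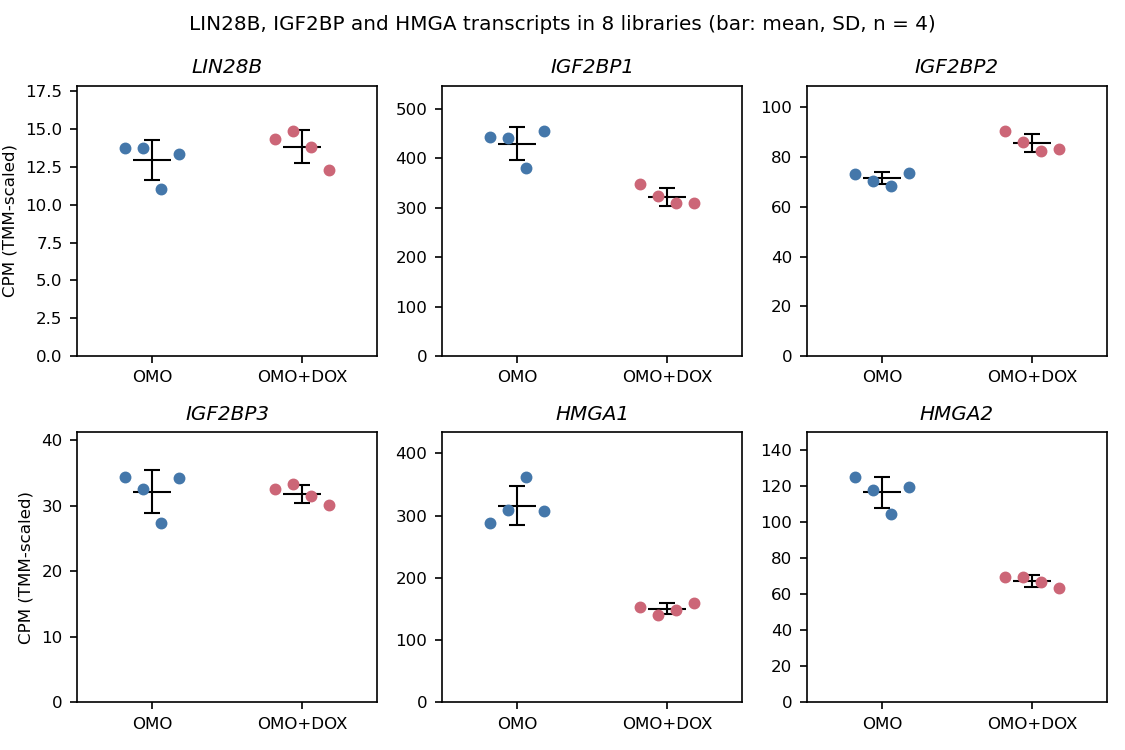
Level of the 6 expressed genes in each library, in TMM-scaled CPM on axes that start at 0. Points are libraries of untreated (OMO) and DOX-treated (OMO+DOX) cells, and the bar gives the mean and SD of 4. The groups do not overlap for IGF2BP1, IGF2BP2, HMGA1 and HMGA2, and overlap for LIN28B and IGF2BP3.

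HMGA1 (ENSG00000137309.19; chromosome 6, 34236873 to 34246231, plus strand, GRCh38) showed the largest change of the set. Its level was 288, 308, 361 and 307 CPM in untreated replicates 1 to 4 and 153, 140, 149 and 160 CPM in DOX-treated replicates 1 to 4. Every untreated library was well above every treated one, and OMO replicate 3 was the highest. The mean fell from 316 ± 31.5 to 151 ± 8.37 CPM (SD, n = 4), to 47.7% of the untreated level, with a log2FC of -1.07 ± 0.07 (SE) and an adjusted p of 6.35e-08 in edgeR's test. Without OMO replicate 3 the log2FC was -1.002. Among all genes tested, 8.91% had a lower log2FC. The files also list 8 HMGA1 pseudogenes, whose near-identical sequence could take or give reads. Together they held between 0.141% and 0.425% of the HMGA1 count of a library, and adding their counts to HMGA1 left the ratio described next at 0.27. The most abundant, HMGA1P8, had between 16 and 29 counts in untreated libraries and between 4 and 11 in treated ones, and stayed below the filter.

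HMGA2 (ENSG00000149948.13; chromosome 12, 65824131 to 65966295, plus strand) followed its paralogue. It stood at 125, 118, 105 and 120 CPM in the untreated replicates and at 69.8, 69.8, 66.6 and 63.3 CPM in the treated ones. The groups were again well apart, and here OMO replicate 3 was the lowest untreated library rather than the highest. The mean fell from 117 ± 8.61 to 67.4 ± 3.11 CPM (SD, n = 4), with a log2FC of -0.79 ± 0.06 (SE) and an adjusted p of 2.11e-07 in edgeR's test, or -0.85 without OMO replicate 3. HMGA2-AS1, an antisense gene that shares 384 exonic bases with HMGA2, had at most 28 counts in any library, far below the 2802 counts of HMGA2 in its lowest library.

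Within a library, the HMGA2 count was 0.43, 0.38, 0.29 and 0.39 times the HMGA1 count in untreated replicates 1 to 4 and 0.46, 0.50, 0.45 and 0.40 times it in treated ones. This ratio depends on the lengths of the transcripts and is used here only to compare libraries. OMO replicate 3 had the lowest ratio, and the highest untreated value lay among the treated ones. On the log2 scale the ratio was 0.27 higher with DOX, with a 95% interval from -0.07 to 0.62, and a two-sided exact permutation test over the 8 libraries gave p = 0.0571 (adjusted p = 0.0571 over the 4 pairs of paralogues tested; the smallest p of this design is 0.0286). Without OMO replicate 3 the difference was 0.16 on the log2 scale. A difference between the falls of HMGA1 and HMGA2 was therefore not shown.

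The IGF2BP family did not move as a block. IGF2BP1 (ENSG00000159217.10; chromosome 17, 48997412 to 49055650, plus strand) stood at 442, 441, 380 and 455 CPM in the untreated replicates and at 348, 323, 309 and 309 CPM in the treated ones. The lowest untreated library, OMO replicate 3, was still above the highest treated library. The mean fell from 430 ± 33.6 to 322 ± 18.3 CPM (SD, n = 4), that is to 74.9%, with a log2FC of -0.42 ± 0.06 (SE) and an adjusted p of 8.81e-05 in edgeR's test, or -0.47 without OMO replicate 3. In absolute size this change was ordinary, since 51.4% of all genes tested changed by more in either direction.

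IGF2BP2 (ENSG00000073792.15; chromosome 3, 185643739 to 185825056, minus strand) was the only gene of the set that rose under TMM scaling. Its level was 73.4, 70.5, 68.5 and 73.4 CPM in the untreated replicates and 90.5, 85.9, 82.4 and 83.3 CPM in the treated ones. The groups did not overlap and the replicates lay close together. The mean went from 71.4 ± 2.42 to 85.5 ± 3.63 CPM (SD, n = 4), with a log2FC of 0.26 ± 0.05 (SE) and an adjusted p of 0.000325 in edgeR's test, or 0.24 without OMO replicate 3. The change is small beside those of other genes, of which 67.4% changed by more. The antisense gene IGF2BP2-AS1 had at most 7 counts in any library.

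IGF2BP3 (ENSG00000136231.14; chromosome 7, 23310209 to 23470467, minus strand) gave 34.3, 32.5, 27.4 and 34.3 CPM in the untreated replicates and 32.5, 33.2, 31.4 and 30.1 CPM in the treated ones. The treated libraries lay within the range of the untreated ones. The log2FC was -0.01 ± 0.07 (SE; adjusted p = 0.866 in edgeR's test), with a 95% interval from -0.17 to 0.14. Without OMO replicate 3, the lowest library, it was -0.087 (adjusted p = 0.107). The log2FC of IGF2BP1 and of IGF2BP2 lie outside the interval over all libraries. IGF2BP3 is the 1 member with a sizeable overlap with another expressed gene: 1521 of its annotated exonic bases are shared with MALSU1, a mitochondrial ribosome assembly factor on the opposite strand. Whether the counting used strand is not stated in the sources used here. The expected counts of IGF2BP3 and of MALSU1 were not whole numbers in any library. They were 1347.14 and 526.86 in OMO replicate 3 and 1366.63 and 385.37 in OMO+DOX replicate 4. In every library the counts of both genes add up to a whole number, within rounding. Reads were thus divided between these genes although they lie on opposite strands. The level, log2FC and ratios of IGF2BP3 depend on that division. MALSU1 stood at 9.81 ± 0.728 CPM untreated and 8.65 ± 0.416 CPM with DOX (SD, n = 4; log2FC of -0.18, adjusted p = 0.0377 in edgeR's test), a call that was lost without OMO replicate 1 or 3, or OMO+DOX replicate 1, 2 or 4 (adjusted p from 0.0529 to 0.105), with library size only (adjusted p = 0.481) and with the low-count filter applied to more than 4 libraries (adjusted p = 0.0507).

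The balance among the 3 IGF2BP genes can be compared within each library, which does not depend on how the libraries are scaled. The IGF2BP2 count was 0.166, 0.160, 0.180 and 0.161 times the IGF2BP1 count in untreated replicates 1 to 4 and 0.260, 0.266, 0.267 and 0.270 times it in treated ones. All treated libraries were above all untreated ones, and the treated values were nearly equal. The ratio rose 1.60-fold, by 0.67 on the log2 scale (95% interval 0.57 to 0.77). The IGF2BP3 count was between 0.0720 and 0.0776 times that of IGF2BP1 untreated and between 0.0935 and 0.103 times it with DOX, a rise of 0.41 on the log2 scale (0.31 to 0.50). Against IGF2BP2, IGF2BP3 went the other way, from between 0.400 and 0.467 to between 0.359 and 0.387, a difference of -0.27 on the log2 scale (-0.42 to -0.12). Each of these 3 ratios gave p = 0.0286 in a two-sided exact permutation test over 8 libraries, the smallest p that 4 against 4 libraries can give, and an adjusted p of 0.0381 over the 4 pairs. The ratios share genes and are not independent results. For IGF2BP2 over IGF2BP1 the separation follows from the levels above, since both genes were apart in opposite directions.

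**Figure D2:**
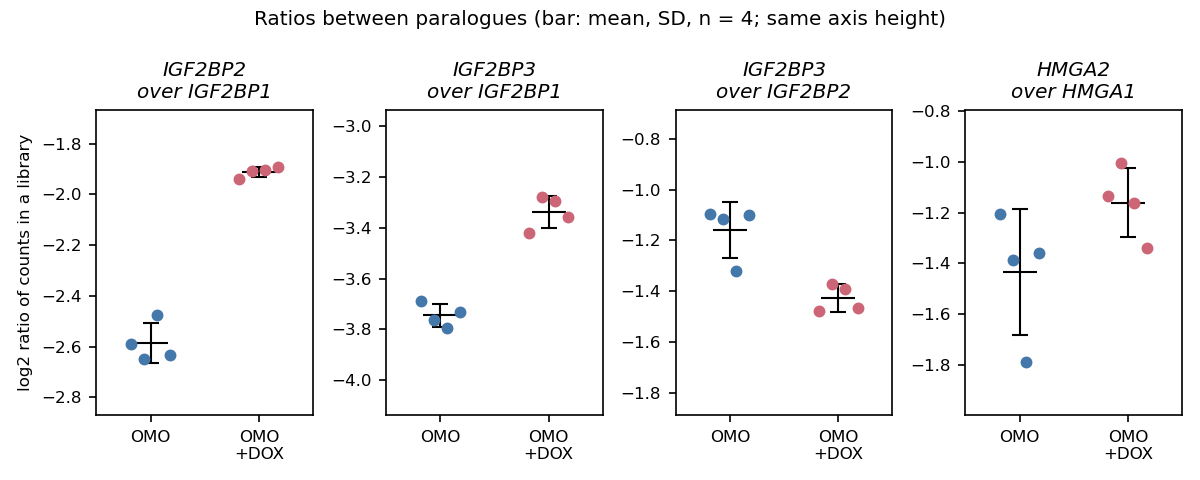
Log2 ratio of the counts of 2 paralogues within each library, for the 4 pairs tested. Points are libraries, the bar gives the mean and SD of 4, and all panels span the same height. The groups are apart for the 3 IGF2BP pairs and overlap for HMGA2 over HMGA1.

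Expressed per kilobase of annotated exons, IGF2BP1 made up between 70.3% and 72.2% of the summed level of the 3 IGF2BP genes in untreated libraries and between 61.6% and 62.5% in treated ones. IGF2BP2 went from between 22.2% and 24.3% to between 31.29% and 31.96%, and IGF2BP3 from between 5.41% and 5.92% to between 6.25% and 6.79%. The shares depend on the length used, and with principal transcripts IGF2BP3 went from between 9.08% and 9.91% to between 10.3% and 11.1%, and IGF2BP1 from between 64.8% and 66.6% to between 55.6% and 56.6%. IGF2BP1 thus remained the leading IGF2BP transcript in every library, with a smaller lead after DOX.

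LIN28B (ENSG00000187772.8; chromosome 6, 104936616 to 105083332, plus strand) gave 13.7, 13.7, 11.02 and 13.4 CPM in the untreated replicates and 14.4, 14.9, 13.8 and 12.3 CPM in the treated ones. The groups overlapped, and OMO replicate 3 was the lowest of all 8 libraries. The log2FC was 0.09 ± 0.08 (SE; adjusted p = 0.326 in edgeR's test), with a 95% interval from -0.09 to 0.28, and without OMO replicate 3 it was 0.02 (adjusted p = 0.804). A fall of LIN28B as large as that of IGF2BP1, HMGA1 or HMGA2 lies outside the interval. LIN28B-AS1, whose exons share 67 bases with LIN28B on the opposite strand, gave 1.73 ± 0.117 and 1.70 ± 0.222 CPM (SD, n = 4; log2FC of -0.03, adjusted p = 0.812 in edgeR's test).

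LIN28A (ENSG00000131914.11; chromosome 1, 26410778 to 26429722, plus strand) had 0, 1, 1 and 3 counts in untreated replicates 1 to 4 and 0, 2, 0 and 0 counts in treated ones. No library exceeded 3 counts, the limit that a count of 0 allows, which corresponds to at most 0.0748 CPM in these libraries. LIN28A was not tested, and neither a fold change nor a ratio of LIN28B to LIN28A is given. Its pseudogenes LIN28AP1 and LIN28AP2 had 1 count and 0 counts over all libraries together. The LIN28 transcripts detected in these cells were therefore those of LIN28B.

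The scaling of the libraries matters for the small changes. Scaled by library size only, the median log2FC of all genes went from 0.01 to 0.14, and 60.3% rather than 50.3% of the genes called were higher. The falls of HMGA1 (-0.94), HMGA2 (-0.67) and IGF2BP1 (-0.29) and the rise of IGF2BP2 (0.39) were still called. LIN28B then passed the test as well (0.22, adjusted p = 0.0445, against 0.14 for the median gene), and IGF2BP3 turned to 0.11 (adjusted p = 0.211).

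**Figure D3:**
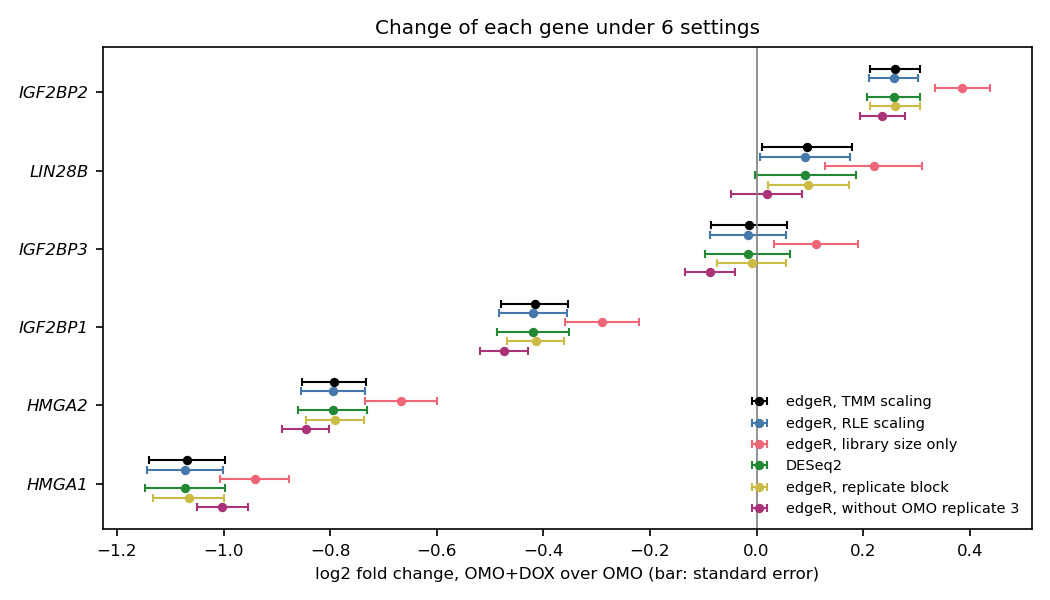
Log2 fold change (OMO+DOX over OMO) of each of the 6 expressed genes with its standard error, under 6 settings of scaling, test or libraries. HMGA1, HMGA2 and IGF2BP1 stay below 0 and IGF2BP2 above it in all 6, whereas IGF2BP3 changes sign under library size only.

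Per kilobase of annotated exons, the order of the levels in untreated cells was HMGA1 (136 ± 13.5 CPM per kb), IGF2BP1 (47.2 ± 3.69), IGF2BP2 (15.1 ± 0.512), HMGA2 (7.58 ± 0.559), IGF2BP3 (3.77 ± 0.384), LIN28B (2.16 ± 0.218) and LIN28A (0.00667 ± 0.00713; SD, n = 4). The ranges of neighbours in this order did not overlap among the untreated libraries. The order was the same with DOX, where HMGA1 fell to 64.8 ± 3.59 and HMGA2 to 4.38 ± 0.202 CPM per kb, the latter now close to IGF2BP3 at 3.74 ± 0.161. HMGA1 ranked 244 among 15105 genes by this measure in untreated cells and LIN28B ranked 10301. The IGF2BP3 level was 7.56 CPM per kb in untreated cells with its longest or principal transcript. The place of HMGA2 in the order depends on the length used, as its annotated exons sum to 15403 bases, while its principal transcript has 4473. With principal transcripts HMGA2 came before IGF2BP2 in untreated cells (26.1 against 19.4 CPM per kb) and after it with DOX (15.1 against 23.2).

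For each gene tested, the 2 coding genes with the most similar profile over the 8 libraries were sought among 9886 coding genes with a mean of at least 10 CPM, by Pearson's r of log2 CPM. HMGA1 was closest to NFKBIA (0.999) and ALYREF (0.999), HMGA2 to SFPQ (0.999) and VEZF1 (0.999), and IGF2BP1 to CFLAR (0.995) and SPTBN1 (0.994). IGF2BP2 was closest to PIGG (0.989) and CUL9 (0.989), IGF2BP3 to POLK (0.994) and SETD2 (0.987), and LIN28B to GPALPP1 (0.986) and RLF (0.981). With 2 groups of 4 libraries a gene that changed in the same direction tends to correlate highly, and 2999 of these genes exceeded 0.9 with HMGA1 and 175 with LIN28B. The values describe profiles in the same libraries, and no test was made.

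Genes around the LIN28 and let-7 axis changed in both directions. The let-7 precursors themselves were not measured, as the 12 precursor genes in the files had 0 counts in every library of these polyA+ libraries. Of 20 genes for processing and turnover of let-7, 5 (25%) rose and 11 (55%) fell, against 38.5% and 38.1% of all genes tested. TRIM71, a ubiquitin ligase of the same developmental pathway and itself a let-7 target, rose from 1.91 ± 0.219 to 6.69 ± 0.561 CPM (log2FC of 1.81), and MSI1, an RNA-binding protein that works with LIN28, fell (log2FC of -0.68). HNRNPA1, which binds the let-7a-1 precursor, fell by 1.24 on the log2 scale. The terminal uridylyltransferases TUT4 and TUT7, which LIN28A recruits to tail pre-let-7, rose (log2FC of 0.45 and 0.52), and XPO5 and DROSHA fell (log2FC of -0.52 and -0.31). The median log2FC of the 20 genes was -0.18, against 0.01 for all genes tested, and with library size only 7 of them rather than 11 were lower, against 31% of all genes under that scaling.

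Of 7 let-7 host transcripts listed, 6 had a row. Of these, 2 (33.3%) rose and 2 (33.3%) fell, against 38.5% and 38.1% of all genes tested. MIR100HG (log2FC of 2.67, from 0.273 CPM) and MIRLET7A1HG (0.56) rose. MIR100HG passed the filter only through its treated libraries, so it entered the test only because it was high with DOX. MIR99AHG (-0.62) and MIRLET7IHG (-0.26, adjusted p = 0.0492 in edgeR's test) fell. The fall of MIRLET7IHG is near the threshold, and only 1 of the 2 falls was called in 4 of the 8 fits that left out a library. Among 31 mRNAs known as let-7 targets, other than the LIN28, IGF2BP and HMGA genes, 29 were tested, 14 (48.3%) rose and 11 (37.9%) fell, against 38.5% and 38.1% of all genes tested, with a median log2FC of 0.11 against 0.01. NR6A1, an orphan nuclear receptor of the germ line and embryo, rose from 4.77 ± 0.323 to 31.8 ± 1.81 CPM (log2FC of 2.74), while THBS1, a matrix glycoprotein, and RRM2, a subunit of ribonucleotide reductase, fell (log2FC of -2.66 each). Apart from the LIN28, IGF2BP and HMGA genes, 140 genes tested held at least 2 seed matches in the 3′ UTR, of which 45.7% rose and 34.3% fell (median log2FC of 0.14), and 11472 held none, of which 39% rose and 39.3% fell (median log2FC of 0.00093). The median 3′ UTR of these groups differed as well, at 5260 and 1020 bases. HMGA2 and IGF2BP1, with 4 matches each, fell, and LIN28B, also with 4, did not pass the test.

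For the IGF2BP family, 15 mRNAs reported as bound by its proteins were listed. Of these, 14 were tested, 5 (35.7%) rose and 7 (50%) fell, against 38.5% and 38.1% of all genes tested. IGF2 itself had at most 1 count in any untreated library and 42.7 to 61.5 counts in treated ones, which is at least 15.5-fold higher when the lowest treated library is set against 3 counts in an untreated one. Its level stayed low, at 1.15 ± 0.108 CPM with DOX, and IGF2 passed the filter only through its treated libraries. E2F1 and MKI67, genes of the cell cycle, fell (log2FC of -1.87 and -1.81), and MYC, whose mRNA IGF2BP1 binds, is described above. Of 20 m6A writers, erasers and other readers, 7 (35%) rose and 5 (25%) fell, against 38.5% and 38.1% of all genes, with a median log2FC of 0.02. With library size only 11 rose and 3 fell, where 47% and 31% of all genes did. METTL16, a methyltransferase (-0.68), and the reader HNRNPA2B1 (-0.63) fell, the reader YTHDF3 (0.59) rose, and METTL3 and METTL14, the core of the writer complex, did not pass the test (log2FC of -0.01 each).

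Beside the HMGA genes, 12 of 13 other high mobility group genes were tested, 5 rose and 6 fell. These are 41.7% and 50% of those tested, against 38.5% and 38.1% of all genes. HMGB3 (-1.56), HMGB2 (-1.55) and HMGB1 (-0.99), DNA-binding proteins with HMG boxes, fell. The nucleosome-binding HMGN genes went both ways, as HMGN1 (0.72), HMGN3 (0.78) and HMGN4 (0.24) rose and HMGN2 (-0.87) and HMGN5 (-0.72) fell. HMGXB3 (1.51) rose. Of 6 other cold shock domain genes, the class to which LIN28 belongs, 5 (83.3%, against 38.1% of all genes) fell. YBX1 (-0.46) and CARHSP1 (-0.56) were among them. CSDC2 rose (0.84, from 0.954 CPM), and it passed the filter only through its treated libraries.

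Most other embryonic and oncofetal genes were not expressed. Of 20 listed, 7 passed the filter, 9 had at most 3 counts in every library, and AFP, DPPA4, NANOG, POU5F1, SALL4, SOX2, PEG10, DLK1 and H19 were among the 13 below it. Of the 7, 4 (57.1%) rose and 2 (28.6%) fell, against 38.5% and 38.1% of all genes tested. Besides TRIM71 and IGF2, which passed the filter only through its treated libraries, GPC3 (0.77) and PLAG1 (0.89) rose. L1TD1, an RNA-binding partner of LIN28 in stem cells (-1.88, from 71.5 ± 1.14 to 19.4 ± 0.742 CPM), and PEG3 (-1.60) fell. LIN28B, the 3 IGF2BP genes and both HMGA genes were thus expressed in cells in which NANOG, POU5F1, SOX2 and DPPA4 were close to 0. L1TD1 was expressed in both groups.

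**Figure D4:**
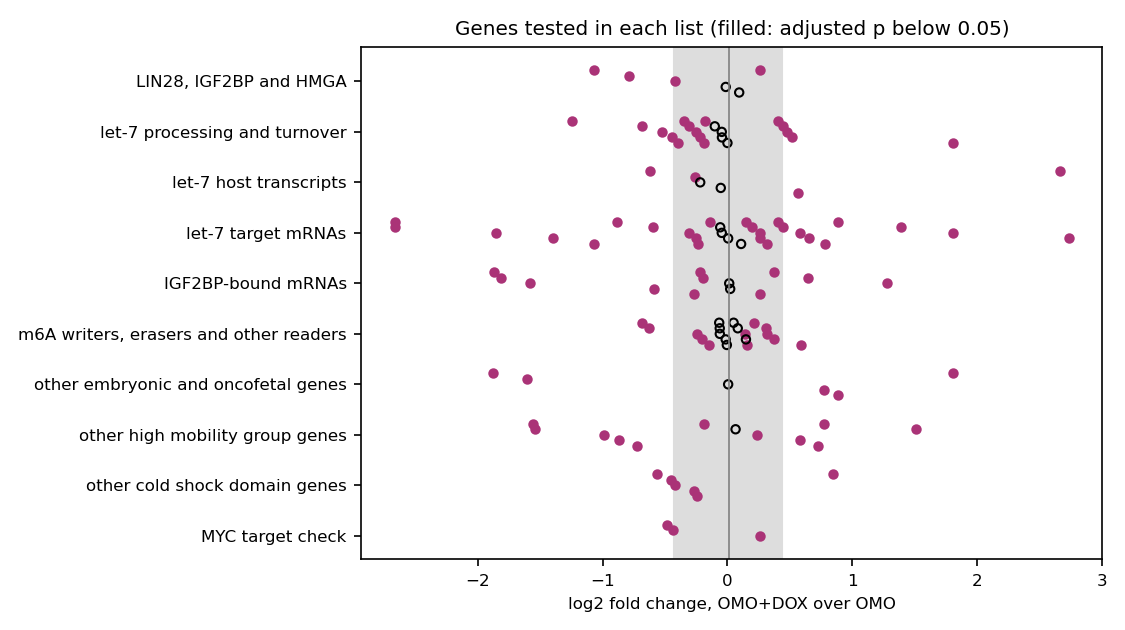
Log2 fold change (OMO+DOX over OMO) of the genes tested in each list, filled where the adjusted p is below 0.05; the grey band holds the middle 50% of all genes tested, from -0.43 to 0.44, and the line is their median. IGF2, whose untreated level is at the counting limit, is left out; HMGA1 and HMGA2 lie below the band, IGF2BP1, LIN28B, IGF2BP3 and IGF2BP2 within it.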

How the data were processed

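PolyA+ RNA of 4 untreated and 4 DOX-treated D283-OMO replicates, described in the study as independent biological replicates, was sequenced as paired reads with a stranded kit. After trimming (Trim Galore) and alignment (STAR, GENCODE 32, GRCh38), the authors deposited RSEM expected counts per gene, not normalized; RSEM divides reads that match several genes. Rounded counts of genes above 1 CPM in 4 or more of 8 libraries were tested with edgeR 4.0.16 in R 4.3.3 (TMM, quasi-likelihood test, no covariates, Benjamini-Hochberg adjustment). The common biological coefficient of variation was 0.0745. Ratios of paralogues used counts plus 0.5 and two-sided exact permutation tests in scipy 1.17.1; their 95% intervals use the pooled spread. Counting limits (3 counts) cover counting error only, since reads lack molecular identifiers.

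Symbols were matched by identifier for 99.4% of rows; annotation is GENCODE 29 on the same build. Named were all 7 genes, their copies and antisense genes, MYC, CAD and NCL, up to 3 genes per list with the largest called changes and no overlap between groups, and the 2 most similar genes of each; DROSHA, XPO5, TUT4, TUT7, METTL3, METTL14, HMGB1, HMGN1, HMGN2, HMGN3, HMGN4, HMGN5, GPC3, PLAG1, PEG3, MIRLET7IHG, the markers and the genes named as not expressed were added after their values were seen. The genes and lists were chosen with earlier results of these data known. Alternatives were RLE or library-size scaling, other filters, DESeq2 1.42.0, the likelihood ratio test, the study's thresholds, a replicate block, other transcript lengths and each library left out. The models were tested on simulated data. Protein sequences were not analysed here.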

Additional observations from a re-analysis of the deposited data

Results flagged for a closer look

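In 26 groups of 4 values (the levels of the 6 tested genes, MYC, CAD and NCL, and the 4 ratios, in each condition), 2 held a library far from the other 3 by Dixon's test at the 95% level, and chance alone flags about 1 in 20 groups. Both concern OMO replicate 3. LIN28B was at 11.02 CPM there, against 13.4 to 13.7 CPM in the other untreated libraries. The log2 ratio of IGF2BP3 over IGF2BP2 was -1.32 there, against -1.12 to -1.10 in the others.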

How the results depend on the processing

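The calls of HMGA1, HMGA2, IGF2BP1 and IGF2BP2 kept their direction and their side of the threshold in all 15 fits tried beside the main one, with log2FC from -1.12 to -0.94, -0.85 to -0.67, -0.47 to -0.29 and 0.23 to 0.39. With library size only, 2 genes rather than 1 were called higher, LIN28B being added. By the study's thresholds, 0 were called higher and 0 lower. IGF2BP3 turned sign with library size only (0.11) and, without OMO replicate 1, OMO replicate 4 or OMO+DOX replicate 4, lay just above 0, and over the libraries left out it ranged from -0.087 to 0.012. With no filter on low counts, LIN28A could be fitted at -1.11 ± 1.21 (SE, adjusted p = 0.47), which is no bound. The ratios of paralogues kept their side of the threshold with a pseudocount of 1, pseudogene copies added or unrounded counts. With 1 library left out they kept their direction (HMGA2 over HMGA1 from 0.16, without OMO replicate 3, to 0.35), and no test was made, since the smallest p is then 0.0571.

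The main test did not pair libraries by replicate number. Deviations from the group means of same-numbered libraries correlated at 0.157, 0.144, 0.241 and -0.176, against a mean of -0.033 for the other pairs. These values do not settle whether the numbers mark pairs. With a replicate block, 11805 rather than 11661 of all genes were called and the calls of the 6 genes did not change. The ratio of IGF2BP2 over IGF2BP1 differed by 0.67 within replicate numbers, and 4 pairs cannot give a p below 0.125. Counts of replicates differed by more than counting noise (chi-square per degree of freedom from 3.35 to 40.8), so none was counted as a repeated sequencing of another library. This comparison covers counting noise only and cannot tell separate cultures from separate libraries of the same RNA. Low counts limit LIN28A, IGF2 and the pseudogenes.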
